A study of Mus musculus with 18 samples.

Results

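The integrated stress and amino acid response was followed through 36 genes, picked by symbol from the 25897 rows of a nascent RNA count table of mouse embryonic stem cells. They comprised 5 transcriptional regulators (Atf4, Atf5, Ddit3, Trib3, Nupr1), 5 effectors (Ddit4, Chac1, Eif4ebp1, Vldlr, Stc2), 10 enzymes of amino acid synthesis, 6 amino acid transporters and 10 cytosolic tRNA synthetases. Of the 36, 35 passed the filter on low counts, and Slc7a5 was listed at 0 counts in all 18 libraries. The cells were of the E14tg2a line, strain 129SV, and in every library the Med24 gene had been knocked out; Med24 belongs to Mediator, the complex that joins transcription factors to RNA polymerase II. Every cell also carried a TET-regulated FLAG-Med24 cDNA and a stable cRAF-ErT2-T2A-RTTA cassette, which supplies the doxycycline-dependent activator RTTA and a cRAF kinase that 4-hydroxytamoxifen (4OHT) turns on, and with it the ERK pathway. Cells labelled KO were kept without doxycycline for several passages, and cells labelled WT with 500 nM doxycycline. Genotype below means these KO and WT labels, since all cells carried the same knockout and constructs. KO and WT cells were cultured in serum, LIF and 2 µM Chir99021, a GSK3 inhibitor, and then for 24 h with 250 nM PD173074, an FGF receptor inhibitor. They were sampled at 0 h, without 4OHT, and after 2 h and 8 h in 250 nM 4OHT. RNA made within 15 min was tagged with 5 mM ethynyl uridine, captured and sequenced, so that each value reflects recent synthesis rather than the standing mRNA. Each of the 6 groups (KO and WT at 0, 2 and 8 h) held 3 libraries, from clones A, B and C.

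No untreated libraries at 2 h or 8 h were analysed here, so 4OHT and elapsed time cannot be told apart. Doxycycline was given to all WT and no KO libraries, so its effect and that of Med24 cannot be told apart either. The labels name no spike-in, and every change is relative to the rest of the library. These are bulk samples, in which fewer cells of a type and less RNA per cell cannot be told apart. The p-values measure the spread between the libraries of a group, pooled over groups, and the main fit left the clone letters unpaired.

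In the integrated stress response, kinases that sense amino acid shortage, misfolded protein, double-stranded RNA or haem shortage phosphorylate eIF2 alpha, which slows protein synthesis while favouring translation of the Atf4 mRNA. ATF4 protein, as a dimer with C/EBP and related partners, binds composite C/EBP-ATF elements and switches on genes that import amino acids, make them and charge them onto tRNA. Since ATF4 is controlled largely at translation, the nascent RNA of Atf4 does not measure its protein, and the genes it acts on are read out here directly. Mouse embryonic stem cells are known for feeding their folate cycle from threonine as well as serine.

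The composite element was searched as TGATGNAA, on either strand, in RefSeq promoter windows of GRCm38.p6 that run from 250 bases before to 50 bases after each annotated start. A window was at hand for 29 of the 36 members, and 12 of them (41.4%) held a match. The other 17 held none. The same letters occurred in the windows of 1219 of 27025 genes (4.51%) and in 1304 of 32851 windows (3.97%). Because the members were picked as genes of the ATF4 response, a higher share among them is a description and not an independent result. By role, matches were found in 2 of 5 regulators, 2 of 4 effectors, 2 of 9 synthesis enzymes, 1 of 4 transporters and 5 of 7 synthetases. The 30-base stretches around the matches of members of each role are shown because they are what these members share in sequence, each read 5′ to 3′ on the strand that carries the match, with the matched letters in capitals.
Trib3 (chr2:152344028-152344057): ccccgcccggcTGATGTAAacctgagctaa
Nupr1 (chr7:126625562-126625591): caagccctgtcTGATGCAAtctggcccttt
Chac1 (chr2:119351038-119351067): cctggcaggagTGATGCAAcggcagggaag
Vldlr (chr19:27216809-27216838): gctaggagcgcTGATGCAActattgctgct
Asns (chr6:7693214-7693243): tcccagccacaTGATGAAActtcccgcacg
Pycr1 (chr11:120643833-120643862): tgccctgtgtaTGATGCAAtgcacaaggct
Slc7a11 (chr3:50443661-50443690): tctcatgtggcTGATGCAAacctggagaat
Slc7a11 (chr3:50443642-50443671): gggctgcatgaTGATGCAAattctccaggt
Gars (chr6:55037960-55037989): cgcccggtgcaTGATGAAAtagcgcagcca
Tars (chr15:11399655-11399684): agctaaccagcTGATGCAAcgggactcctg
Iars (chr13:49682126-49682155): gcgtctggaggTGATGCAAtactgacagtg
Yars (chr4:129189895-129189924): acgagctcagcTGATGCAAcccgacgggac

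Slc7a11 held 2 matches, which lay on opposite strands with overlapping flanks. In Trib3, Iars and Yars the match began after the annotated start, and in the others shown before it. Whole windows are shown for Asns and Trib3, whose nascent RNA moved in opposite directions at 2 h and 8 h, and for Mthfd2, which held no match and rose at both times. They are written on the gene's own strand, so that the Trib3 match appears as its reverse complement, with matches in capitals.
Asns (chr6:7693160-7693459, minus strand): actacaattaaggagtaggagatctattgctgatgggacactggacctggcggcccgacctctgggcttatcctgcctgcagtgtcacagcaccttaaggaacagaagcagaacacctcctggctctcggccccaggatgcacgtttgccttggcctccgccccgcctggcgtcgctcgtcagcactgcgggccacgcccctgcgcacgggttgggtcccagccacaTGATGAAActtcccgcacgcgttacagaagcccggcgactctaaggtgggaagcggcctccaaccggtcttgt
Trib3 (chr2:152344011-152344310, minus strand): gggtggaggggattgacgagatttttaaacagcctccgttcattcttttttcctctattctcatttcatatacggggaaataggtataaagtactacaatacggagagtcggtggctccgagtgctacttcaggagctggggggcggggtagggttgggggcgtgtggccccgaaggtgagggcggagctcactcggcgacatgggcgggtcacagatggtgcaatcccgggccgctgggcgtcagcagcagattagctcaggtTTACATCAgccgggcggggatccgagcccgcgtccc
Mthfd2 (chr6:83317555-83317854, minus strand): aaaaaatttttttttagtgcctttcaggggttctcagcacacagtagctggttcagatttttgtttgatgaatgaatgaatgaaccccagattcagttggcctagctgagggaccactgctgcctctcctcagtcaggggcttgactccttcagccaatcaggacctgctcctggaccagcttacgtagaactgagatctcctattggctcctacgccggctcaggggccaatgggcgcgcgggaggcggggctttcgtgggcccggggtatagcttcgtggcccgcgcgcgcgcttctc

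A match is a description of letters, and its absence says only that these letters are not in this window.

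Library totals were 6691177 to 14541145 counts, and 3 counts, the most that a 0 allows, correspond to 0.196 to 0.629 CPM, the count scaled to a library of 1000000 reads. Med24 measured 34.0 to 49.2 CPM in KO libraries and 399 to 1775 CPM in WT libraries. The WT range moved with time, at 515 to 602 CPM at 0 h, 1520 to 1775 CPM at 2 h and 399 to 407 CPM at 8 h. WT cells were therefore not compared at a constant nascent Med24 level, and its part in the responses was not tested. A set of 13 very abundant genes took 34.2 to 43.9% of the counts in 3 KO libraries (2 h clone A, 8 h clones B and C) and 17.7 to 24.0% in the other 15, and levels below are CPM after TMM scaling, which trims such genes when it sets the scale. These 13 genes were picked for a mean above 1000 CPM and for a log2 SD above 0.3 of their deviations from group means. The deviations also had to correlate with those of Cdk8 above 0.9. Their uneven share therefore follows from the choice and is a description. Markers of pluripotent cells summed to 1731 to 2707 CPM, with Pou5f1 and Sox2 high in every group. The 9 markers did not move together. Nanog averaged 358 CPM at 0 h and 70.6 CPM at 8 h in KO cells, and 330 and 19.8 CPM in WT cells. At 8 h 4 markers rose and 3 fell in KO cells (28.2% and 29.6% of all genes), and 3 rose and 6 fell in WT cells (30.7% and 31.3%). In KO against WT cells 5 were higher and 0 lower at 8 h (14.5% and 17.1%). The part of these markers in the result was not tested. Feeder fibroblast markers summed to 0.707 to 8.77 CPM, with S100a4 and Lum at 0 in every library. Slc7a5, the light chain that pairs with Slc3a2 to import leucine, lies at chr8:121881150-121907694 wholly inside the annotated span of Gm20388 (chr8:119910841-124345722), which had 52886 counts in all. Of 881 protein-coding genes that lie wholly inside another one, 875 (99.3%) were at 0 counts, on either strand, against 2019 of 17197 (11.7%) with no overlap. Its 0 is therefore no measure of its synthesis. Among the tested members, Mthfd2 (13.8%), Atf5 (13%), Cth (7.24%) and Aars (5.41%) share the largest parts of their span with other genes, and counts from those parts are uncertain.

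Per kilobase of gene span not shared with other genes, Atf4 and Slc38a2 were the most strongly synthesised members at 0 h, with 40.4 and 51.0 CPM per kilobase in KO cells and 52.8 and 45.5 CPM per kilobase in WT cells. Eif4ebp1, Slc3a2 and Ddit4 followed at 12.5 to 15.0 CPM per kilobase in KO cells and 11.8 to 13.7 in WT cells. The stress effectors Chac1, Stc2, Nupr1 and Vldlr were near the bottom of the order. Vldlr had 0.0434 CPM per kilobase in KO cells and 0.0207 in WT cells. Only Slc7a11 was lower on this scale, over an annotated span of 551089 bases.

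At 8 h of 4OHT nearly the whole module gave more nascent RNA than at 0 h, in KO and in WT cells. In KO cells 30 of 35 members were higher and 2 lower, against 28.2% and 29.6% of all 14128 genes tested (57.8% called in all). In WT cells 31 members were higher and 2 lower, against 30.7% and 31.3% of all genes (61.9% called). A gene was called at an adjusted p under 0.05 in edgeR's quasi-likelihood test, adjusted over all genes. The same 30 members rose in both KO and WT cells, an outcome shared by 22.2% of all genes, and Ddit4 and Cth fell in both. The median log2 fold change of the members was 0.97 in KO cells and 0.81 in WT cells, against -0.02 and -0.01 over all genes. With library size alone as the scale, which lowers the median of all genes in KO by 0.36 on the log2 scale at 8 h, 24 members were higher and 2 lower in KO cells and 29 higher and 2 lower in WT cells, and the members' medians were 0.61 in KO cells and 0.73 in WT cells. Libraries did not overlap for most members: in KO cells every 8 h library was above every 0 h library for 29 members (28.4% of all genes) and below for 2 (31.7%), and in WT cells above for 31 (33.0%) and below for 3 (33.5%).

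**Figure D1:**
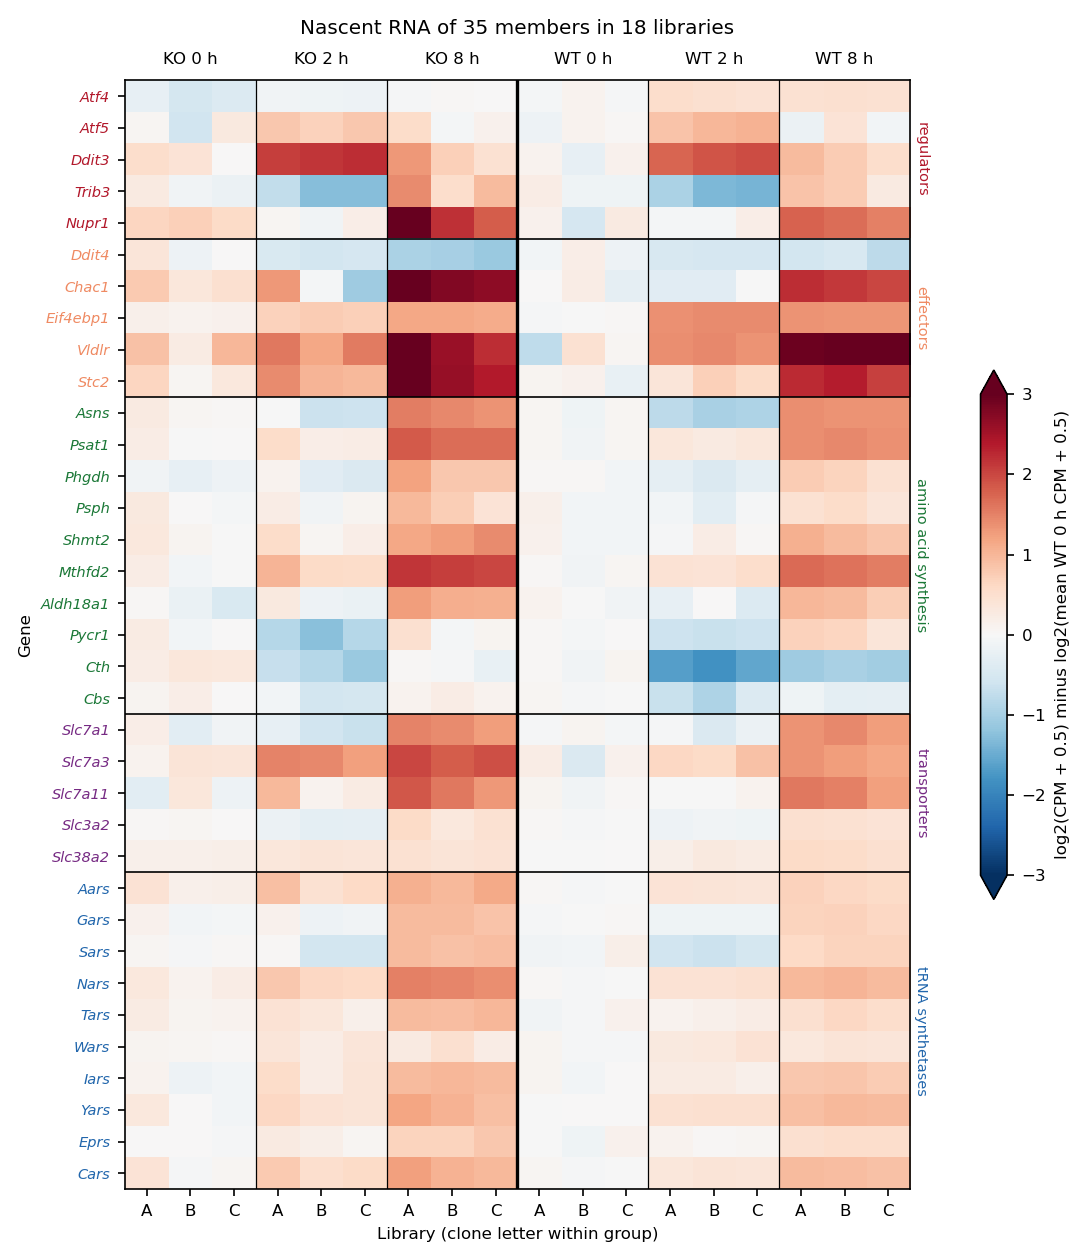
Nascent RNA of the 35 tested members (rows, by role) in each of the 18 libraries (columns, clones A, B and C within each group), as log2(CPM + 0.5) minus the log2 of the mean WT 0 h level on the same scale; red is higher and blue lower. The 8 h columns are red for most rows in both KO and WT cells, while Cth and Ddit4 are not, and the 2 h columns mix red and blue.

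The 2 h picture was mixed. In KO cells 18 members were higher and 9 lower than at 0 h, against 31.5% and 35.2% of all genes (66.6% called). In WT cells 17 were higher and 9 lower, against 32.4% and 33.8% (66.2% called). The medians of the members were 0.17 in KO cells and 0.07 in WT cells, against -0.05 and -0.02 over all genes. The same 17 members rose in both KO and WT cells (25.7% of all genes) and the same 8 fell in both (28.2% of all genes), namely Trib3, Ddit4, Asns, Pycr1, Cth, Cbs, Slc3a2 and Sars. The WT call of Slc3a2 was marginal (-0.13, edgeR, adjusted p = 0.0413). It was lost in DESeq2, with RLE scaling, without the filter on low counts and with library size alone. It was also lost without WT 0 h clone A or C or WT 2 h clone A, B or C. In KO cells every 2 h library was above every 0 h library for 16 members (33.4% of all genes) and below for 8 (37.1%), and in WT cells above for 16 (33.5%) and below for 10 (35.3%). The balance depended on scale: with library size alone 6 were higher and 10 lower in KO cells, and 7 higher and 10 lower in WT cells, where the median of all genes fell by 0.28 and 0.16. The medians of the members then turned below 0, to -0.12 in KO cells and -0.09 in WT cells. The WT median also rested on single libraries: it was 0.15, 0.04 and 0.21 without WT 0 h clone A, B or C, and 0.14 without WT 2 h clone A or B. The 2 h and 8 h comparisons of each genotype share their 0 h libraries. Feeder fibroblast markers, of which only 2 of 8 could be tested, summed to 0.707 to 1.49 CPM at 0 h, 6.56 to 7.91 CPM at 2 h and 5.34 to 7.97 CPM at 8 h in KO libraries. In WT libraries their sums were 0.835 to 1.68, 7.04 to 8.77 and 3.02 to 4.30 CPM at the same times. The sums rose mainly through Col1a1 at 2 h and Thy1 at 8 h, not through the markers as a set. Col1a1 averaged 0.275, 6.93 and 1.17 CPM in KO cells and 0.503, 6.99 and 0.349 CPM in WT cells at these times. Thy1 averaged 0.556, 0.141 and 4.92 CPM in KO cells and 0.416, 0.547 and 3.09 CPM in WT cells. None of the other feeder markers averaged above 0.33 CPM in any group. The part of the feeder markers in the result was not tested.

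**Figure D2:**
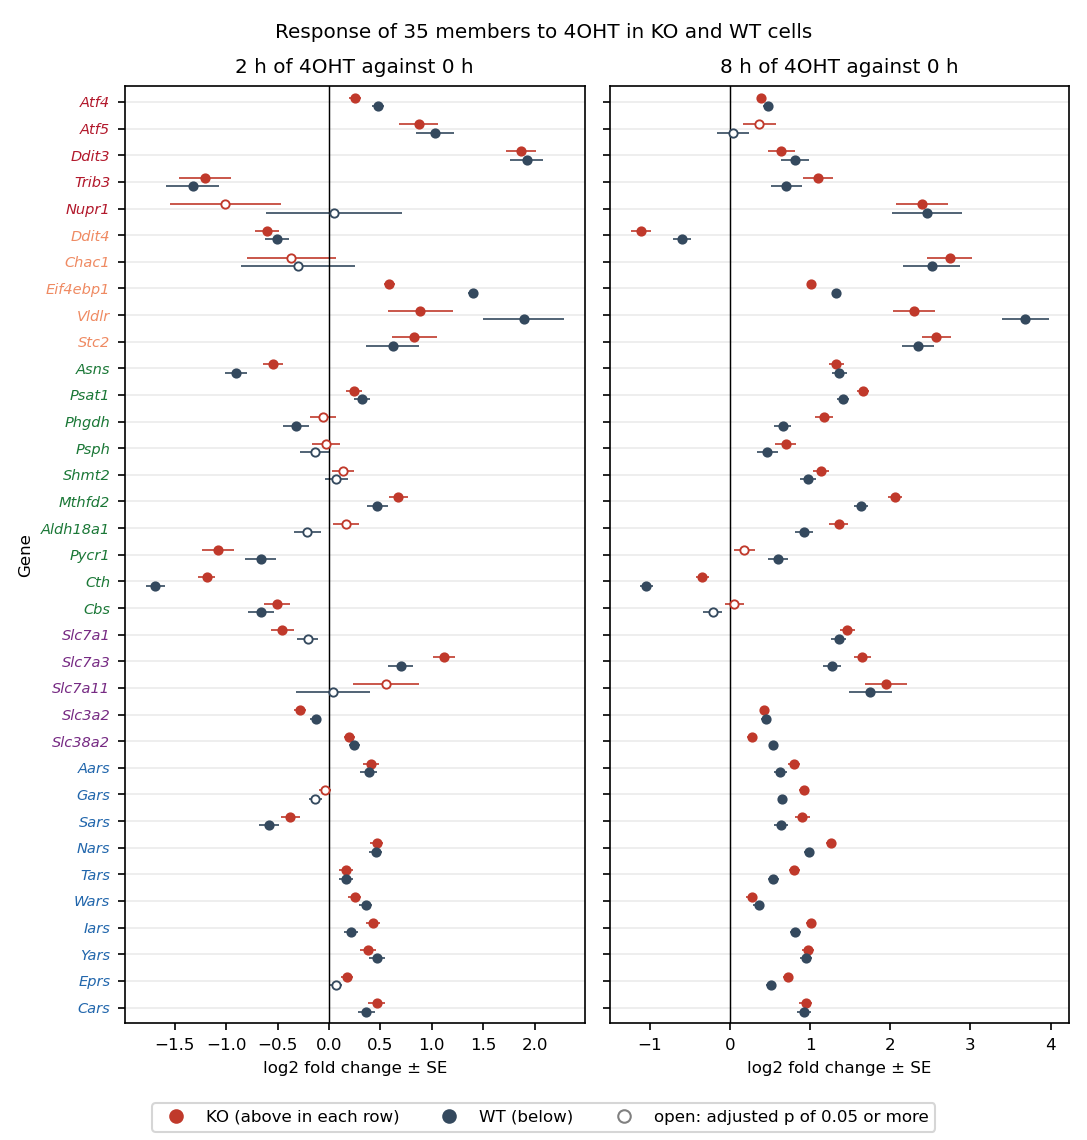
Log2 fold change (± SE) of each member at 2 h (left) and 8 h (right) of 4OHT against 0 h, in KO cells (red, upper point of each row) and WT cells (dark blue, lower point), with genes down the side in role order and open points for an adjusted p of 0.05 or more. At 8 h all points but those of Ddit4, Cth and the WT point of Cbs are right of 0, while at 2 h Trib3, Asns, Pycr1, Cth, Cbs and Sars lie left of it.

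Of the regulators, 3 rose and 1 fell at 2 h, and 4 rose at 8 h, in KO and in WT cells. Over all genes 31.5% rose and 35.2% fell at 2 h in KO cells, and 32.4% and 33.8% in WT cells. At 8 h these shares were 28.2% and 29.6% in KO cells, and 30.7% and 31.3% in WT cells. Under library size alone 2 regulators were called higher in KO cells at 2 h and at 8 h, with the sign of Atf4 turned at 2 h, and 3 and 4 in WT cells. Ddit3 encodes CHOP, the C/EBP-family factor of prolonged stress. In KO clones A, B and C it measured 10.2, 9.29 and 6.93 CPM at 0 h, 30.5, 32.2 and 34.0 CPM at 2 h, and 17.7, 11.7 and 9.64 CPM at 8 h. In WT clones it measured 7.38, 5.71 and 7.56 CPM at 0 h, 24.3, 26.6 and 28.0 CPM at 2 h, and 13.7, 12.0 and 10.1 CPM at 8 h. All 2 h libraries stood above all 0 h and 8 h libraries of their genotype, and the 8 h and 0 h libraries overlapped in KO cells, where the 8 h call was lost without KO 8 h clone A. The log2 fold change at 2 h was 1.87 ± 0.15 (SE) in KO cells (edgeR, adjusted p = 1.84e-12) and 1.92 ± 0.16 in WT cells (adjusted p = 7.81e-12), the highest of any member at that time in each genotype. Ddit3 lies beside Mars and shares 1.23% of its span.

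Trib3, a pseudokinase that ATF4 and CHOP induce and that in turn restrains them, moved down and then up. In KO clones A, B and C it measured 10.6, 8.07 and 7.66 CPM at 0 h, 5.04, 3.31 and 3.29 CPM at 2 h, and 24.2, 12.6 and 17.2 CPM at 8 h. In WT clones the values were 10.1, 7.94 and 7.93 CPM at 0 h, 4.27, 3.13 and 2.996 CPM at 2 h, and 16.1, 14.9 and 10.6 CPM at 8 h. No 2 h library overlapped a 0 h library, and no 8 h library did. Trib3 fell at 2 h by 1.21 ± 0.25 in KO cells (edgeR, adjusted p = 0.000102) and by 1.33 ± 0.26 in WT cells (adjusted p = 4.64e-05), on the log2 scale, the lowest or next to lowest value of any member. At 8 h its log2 fold change was 1.10 ± 0.19 in KO cells and 0.70 ± 0.19 in WT cells.

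Nupr1, a small stress-induced chromatin protein, was barely made at 0 h and 2 h. It measured 0.919, 1.01 and 0.851 CPM at 0 h, 0.458, 0.354 and 0.548 CPM at 2 h, and 7.16, 3.66 and 2.73 CPM at 8 h in KO clones A, B and C. In WT clones it measured 0.501, 0.139 and 0.6004 CPM at 0 h, 0.377, 0.375 and 0.555 CPM at 2 h, and 2.61, 2.40 and 2.09 CPM at 8 h. Values this low can rest on 3 counts or fewer, and the 8 h libraries stood clear above all the others. The log2 fold change at 8 h was 2.40 ± 0.32 in KO cells (edgeR, adjusted p = 1.97e-07) and 2.46 ± 0.44 in WT cells (adjusted p = 1.44e-05).

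Atf4 itself rose modestly at both times under TMM scaling. It averaged 95.3 ± 9.61, 113 ± 2.35 and 125 ± 2.50 CPM in KO cells and 124 ± 7.68, 174 ± 6.20 and 172 ± 2.57 CPM in WT cells (SD, n = 3) at 0, 2 and 8 h. Every 2 h and 8 h library of each genotype was above every 0 h library. Under library size alone Atf4 was not called in KO cells, at -0.03 at 2 h (edgeR, adjusted p = 0.833) and 0.02 at 8 h (adjusted p = 0.887). The Atf4 rises in WT cells were still called, at 0.32 (adjusted p = 0.0231) and 0.40 (adjusted p = 0.00589). Atf5, a relative of Atf4 and a further bZIP factor induced in this response, was called only at 2 h. It averaged 5.93 ± 1.83, 10.7 ± 0.473 and 7.20 ± 1.68 CPM in KO cells and 6.06 ± 0.603, 12.3 ± 0.792 and 6.40 ± 1.59 CPM in WT cells at 0, 2 and 8 h.

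**Figure D3:**
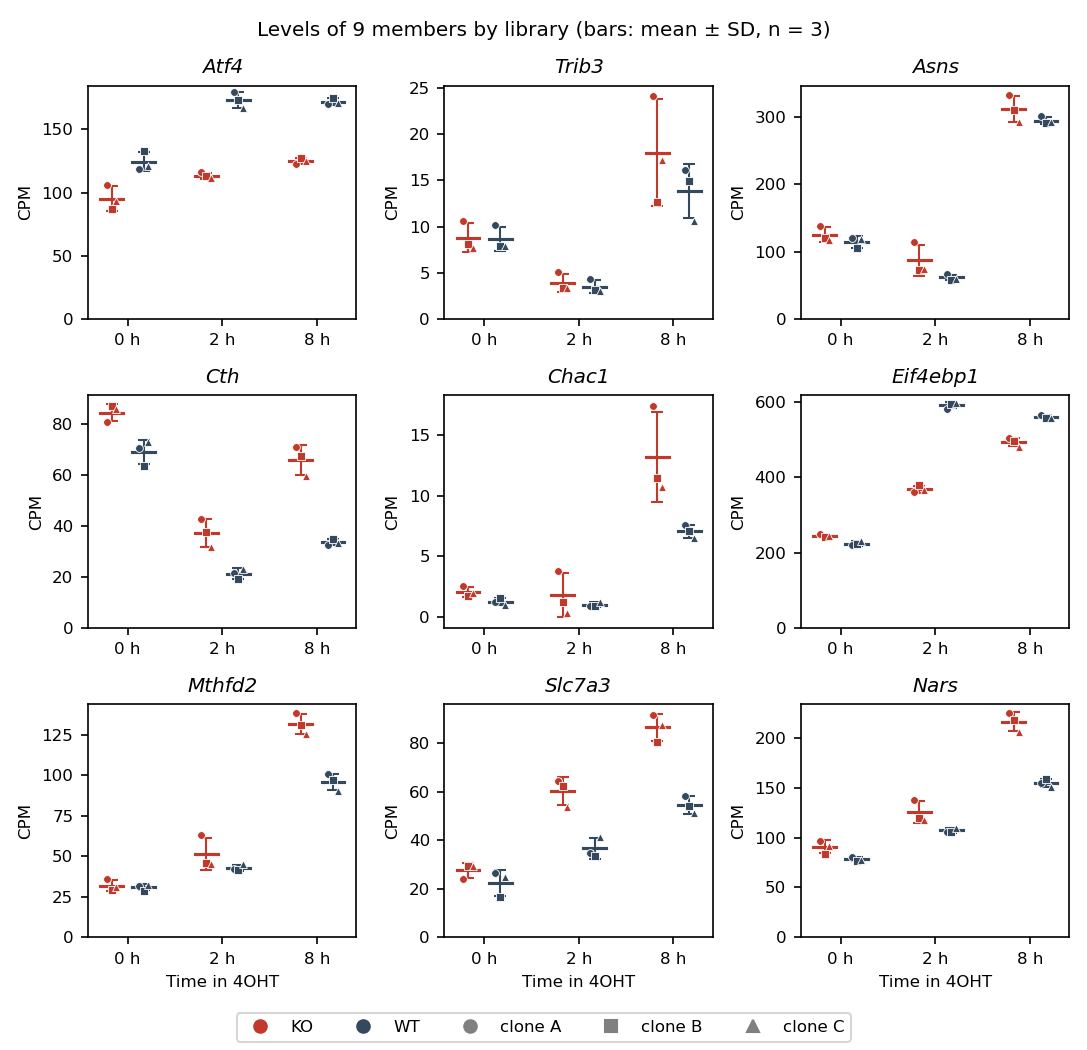
Levels (CPM, linear axes) of 9 members in each library at 0, 2 and 8 h of 4OHT, KO in red and WT in dark blue, with symbols for clones A, B and C and bars for mean ± SD of 3 libraries. Atf4 and Eif4ebp1 are lower in KO than in WT cells at 2 h and 8 h, Cth, Slc7a3 and Nars are higher, and Trib3 and Asns dip at 2 h before their 8 h level.

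Effectors had the highest median log2 fold change of any role at 8 h, 2.29 in KO cells and 2.34 in WT cells. At that time 4 of 5 rose and Ddit4 fell, in KO and in WT cells and also with library size alone. At 2 h 3 rose and Ddit4 fell in each genotype, and with library size alone 2 rose. Over all genes 31.5% rose and 35.2% fell at 2 h in KO cells, and 32.4% and 33.8% in WT cells. At 8 h these shares were 28.2% and 29.6% in KO cells, and 30.7% and 31.3% in WT cells. Chac1, an enzyme that breaks down glutathione, had the highest log2 fold change of any member in KO cells at 8 h. It measured 2.53, 1.72 and 1.95 CPM at 0 h, 3.82, 1.18 and 0.329 CPM at 2 h, and 17.4, 11.5 and 10.7 CPM at 8 h in KO clones A, B and C. In WT clones it measured 1.25, 1.53 and 0.961 CPM at 0 h, 0.880, 0.876 and 1.22 CPM at 2 h, and 7.58, 7.08 and 6.50 CPM at 8 h. The 8 h libraries were clear of all others, while the KO 2 h libraries were spread widely and overlapped the 0 h ones. The 8 h change was 2.74 ± 0.28 in KO cells (edgeR, adjusted p = 1.13e-09) and 2.51 ± 0.35 in WT cells (adjusted p = 2.80e-07).

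Stc2, a secreted glycoprotein induced by stress, rose at both times, though its WT call at 2 h was lost without WT 0 h clone A or C or WT 2 h clone B or C. KO clones A, B and C had 7.24, 4.64 and 5.71 CPM at 0 h, 12.8, 9.57 and 9.20 CPM at 2 h, and 45.2, 29.6 and 25.2 CPM at 8 h. WT clones had 4.76, 4.87 and 3.72 CPM at 0 h, 5.91, 7.63 and 6.88 CPM at 2 h, and 22.9, 24.7 and 19.96 CPM at 8 h. The 3 times did not overlap in either genotype. At 8 h the log2 fold change was 2.57 ± 0.18 in KO cells (edgeR, adjusted p = 2.09e-13) and 2.34 ± 0.20 in WT cells.

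Vldlr, the very low density lipoprotein receptor, had 1.84, 1.01 and 2.07 CPM at 0 h, 3.36, 2.36 and 3.29 CPM at 2 h, and 9.88, 7.16 and 5.45 CPM at 8 h in KO clones A, B and C. In WT clones it had 0.250, 1.25 and 0.841 CPM at 0 h, 2.89, 3.003 and 2.77 CPM at 2 h, and 9.28, 11.5 and 9.63 CPM at 8 h. Each later time stood clear of the one before in both genotypes. The 8 h change was 2.29 ± 0.27 in KO cells and 3.68 ± 0.29 in WT cells (edgeR, adjusted p = 2.41e-12), the highest of any tested member in WT cells. At 2 h it was 0.89 ± 0.32 in KO cells (adjusted p = 0.0153) and 1.89 ± 0.39 in WT cells (adjusted p = 9.37e-05). The KO call at 2 h was lost without KO 0 h clone B (0.61, adjusted p = 0.116), without KO 2 h clone C (0.80, adjusted p = 0.0624) and with library size alone (0.60, adjusted p = 0.129).

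Eif4ebp1 encodes 4E-BP1, which blocks cap-dependent translation until mTORC1 phosphorylates it. In KO clones A, B and C it measured 248, 242 and 244 CPM at 0 h, 360, 378 and 366 CPM at 2 h, and 504, 497 and 481 CPM at 8 h. In WT clones it measured 219, 222 and 230 CPM at 0 h, 582, 595 and 597 CPM at 2 h, and 566, 558 and 559 CPM at 8 h. In KO cells the 8 h libraries stood above the 2 h ones, whereas in WT cells they stood below them. The 2 h change was 0.59 ± 0.05 in KO cells (edgeR, adjusted p = 6.77e-12) and 1.40 ± 0.05 in WT cells (adjusted p = 3.17e-21). Ddit4, also called REDD1, restrains mTORC1 under stress, and went against the module. KO clones had 32.7, 22.9 and 25.5 CPM at 0 h, 18.5, 17.2 and 17.7 CPM at 2 h, and 13.0, 12.5 and 11.5 CPM at 8 h. WT clones had 24.0, 29.5 and 22.9 CPM at 0 h, 18.1, 17.8 and 17.8 CPM at 2 h, and 17.3, 18.2 and 14.5 CPM at 8 h. All later libraries were below all 0 h libraries. Ddit4 fell at 8 h by 1.11 ± 0.13 in KO cells (edgeR, adjusted p = 1.10e-08) and by 0.60 ± 0.12 in WT cells (adjusted p = 4.24e-05) on the log2 scale.

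Enzymes of amino acid synthesis moved in both directions. At 8 h 7 of 10 rose and 1 fell in KO cells, and 8 rose and 1 fell in WT cells; with library size alone 6 rose and 1 fell in KO cells and 7 rose and 1 fell in WT cells. At 2 h 2 rose and 4 fell in KO cells, and 2 rose and 5 fell in WT cells, while with library size alone 1 and none were called higher, Psat1 turning sign in KO cells. Over all genes 31.5% rose and 35.2% fell at 2 h in KO cells, and 32.4% and 33.8% in WT cells. At 8 h these shares were 28.2% and 29.6% in KO cells, and 30.7% and 31.3% in WT cells. The highest 8 h log2 fold changes of this role were those of Mthfd2 and Psat1, at 2.06 and 1.66 in KO cells and 1.64 and 1.41 in WT cells. Mthfd2, a mitochondrial folate enzyme, averaged 31.8 ± 3.63, 51.3 ± 10.1 and 132 ± 6.32 CPM in KO cells and 30.8 ± 1.91, 42.7 ± 1.97 and 95.8 ± 5.15 CPM in WT cells (SD, n = 3) at 0, 2 and 8 h. Psat1, a transaminase of serine synthesis, averaged 61.0 ± 5.89, 72.6 ± 10.2 and 192 ± 12.8 CPM in KO cells and 57.6 ± 3.56, 72.1 ± 2.18 and 153 ± 4.12 CPM in WT cells. For both genes every 8 h library was above every 2 h and 0 h library. Phgdh and Psph, which open and close serine synthesis, Shmt2, which passes its carbon to folate, and Aldh18a1, which opens proline synthesis, also rose at 8 h in both genotypes, with log2 fold changes of 0.69 to 1.35 in KO cells and 0.47 to 0.97 in WT cells.

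Asns, asparagine synthetase and a standard reporter of ATF4 activity, dipped before it rose. In KO clones A, B and C it measured 138, 120 and 117 CPM at 0 h, 114, 72.9 and 73.8 CPM at 2 h, and 333, 311 and 293 CPM at 8 h. In WT clones it measured 120, 105 and 119 CPM at 0 h, 66.1, 58.3 and 59.7 CPM at 2 h, and 301, 292 and 293 CPM at 8 h. The 3 times did not overlap, and KO clone A at 2 h stood well above the other KO clones. Asns fell at 2 h by 0.54 ± 0.10 in KO cells and by 0.90 ± 0.11 in WT cells (edgeR, adjusted p = 8.56e-09) on the log2 scale, and its 8 h log2 fold change was 1.32 ± 0.09 in KO cells and 1.36 ± 0.09 in WT cells.

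Pycr1, which completes proline synthesis in mitochondria, had 17.3, 13.8 and 14.7 CPM at 0 h, 7.94, 5.90 and 7.89 CPM at 2 h, and 20.7, 13.98 and 15.5 CPM at 8 h in KO clones A, B and C. In WT clones it had 15.1, 14.1 and 14.8 CPM at 0 h, 9.43, 9.01 and 9.32 CPM at 2 h, and 23.9, 23.3 and 18.9 CPM at 8 h. The 2 h libraries were the lowest in both genotypes, and the 8 h libraries cleared the 0 h ones in WT but not in KO cells. Pycr1 fell at 2 h by 1.08 ± 0.15 in KO cells (edgeR, adjusted p = 3.36e-07) and by 0.66 ± 0.15 in WT cells on the log2 scale. At 8 h its log2 fold change was 0.18 ± 0.13 in KO cells (adjusted p = 0.267) and 0.60 ± 0.13 in WT cells (adjusted p = 0.000132), and with library size alone the KO value turned to -0.18 (adjusted p = 0.407).

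Cth and Cbs, the enzymes that make cysteine from homocysteine, were the exception. Cth measured 80.8, 87.1 and 86.0 CPM at 0 h, 42.7, 37.8 and 31.8 CPM at 2 h, and 70.9, 67.4 and 59.5 CPM at 8 h in KO clones A, B and C. In WT clones it measured 70.6, 63.8 and 72.9 CPM at 0 h, 21.6, 19.1 and 23.3 CPM at 2 h, and 32.5, 35.04 and 33.5 CPM at 8 h. Every later library was below every 0 h library of its genotype, and the KO and WT libraries at 8 h were far apart. Cth fell at 2 h by 1.19 ± 0.08 in KO cells (edgeR, adjusted p = 8.00e-14) and by 1.69 ± 0.09 in WT cells (adjusted p = 1.74e-16), and at 8 h by 0.35 ± 0.08 in KO cells (adjusted p = 0.000335) and by 1.04 ± 0.08 in WT cells (adjusted p = 2.07e-12). Cbs averaged 19.3 ± 1.31, 13.8 ± 2.74 and 20.01 ± 0.837 CPM in KO cells and 17.99 ± 0.584, 11.3 ± 2.09 and 15.3 ± 1.06 CPM in WT cells at 0, 2 and 8 h, and was called only at 2 h.

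All 5 tested transporters rose at 8 h in KO and in WT cells, though with library size alone only 3 were called in KO cells, where the log2 fold change of Slc38a2 was below 0; all 5 were still called in WT cells. At 2 h 2 rose and 2 fell in KO cells, and 2 rose and 1 fell in WT cells, with Slc38a2 again changing sign in KO cells under library size alone. The WT fall was that of Slc3a2, whose call was marginal, as given above. Over all genes 31.5% rose and 35.2% fell at 2 h in KO cells, and 32.4% and 33.8% in WT cells. At 8 h these shares were 28.2% and 29.6% in KO cells, and 30.7% and 31.3% in WT cells. Slc7a3, a carrier of arginine and lysine, was the member of this role that moved most at 2 h. KO clones A, B and C had 24.1, 29.5 and 29.3 CPM at 0 h, 64.6, 62.4 and 53.6 CPM at 2 h, and 91.8, 80.6 and 87.4 CPM at 8 h. WT clones had 26.5, 16.4 and 24.6 CPM at 0 h, 34.8, 33.7 and 41.5 CPM at 2 h, and 58.4, 54.0 and 51.1 CPM at 8 h. The 3 times did not overlap within either genotype, and the KO libraries were above the WT libraries at 2 h and 8 h. Its 2 h change was 1.11 ± 0.11 in KO cells (edgeR, adjusted p = 1.70e-10) and 0.70 ± 0.12 in WT cells (adjusted p = 8.16e-06). Slc7a1, the broadly used relative of Slc7a3, averaged 59.0 ± 10.8, 43.4 ± 7.21 and 161 ± 13.5 CPM in KO cells and 61.1 ± 2.98, 52.7 ± 7.13 and 156 ± 9.49 CPM in WT cells at 0, 2 and 8 h. Slc7a11, the cystine carrier, was scarce, at 1.39 ± 0.467, 2.16 ± 0.908 and 5.27 ± 1.13 CPM in KO cells and 1.40 ± 0.130, 1.44 ± 0.101 and 4.68 ± 0.647 CPM in WT cells. Slc38a2, a sodium-coupled carrier of small neutral amino acids, was abundant and rose at both times in both genotypes, though under library size alone only its 8 h rise in WT cells was called, averaging 630 ± 8.80, 722 ± 16.5 and 759 ± 18.5 CPM in KO cells and 561 ± 7.12, 665 ± 29.5 and 816 ± 25.1 CPM in WT cells. Its 8 h log2 fold change was 0.27 in KO cells, the lowest of the 5 tested transporters there, and 0.54 in WT cells.

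All 10 tRNA synthetases rose at 8 h in KO and in WT cells, with log2 fold changes of 0.27 to 1.26 in KO cells and 0.35 to 0.99 in WT cells; with library size alone 9 of 10 were called in each, and Wars turned below 0 in KO cells. At 2 h 8 rose and Sars fell in KO cells, and 7 rose and Sars fell in WT cells. These 2 h calls depended on scale, with 0 higher and 2 lower in KO cells and 1 higher and 2 lower in WT cells under library size alone, where Tars, Wars and Eprs changed sign in KO cells. Over all genes, with TMM, 31.5% rose and 35.2% fell at 2 h in KO cells, and 32.4% and 33.8% in WT cells. At 8 h these shares were 28.2% and 29.6% in KO cells, and 30.7% and 31.3% in WT cells. Nars, which charges asparagine onto its tRNA, rose most at 8 h in both genotypes. In KO clones A, B and C it measured 96.7, 83.8 and 91.5 CPM at 0 h, 138, 120 and 118 CPM at 2 h, and 225, 218 and 206 CPM at 8 h. In WT clones it measured 80.3, 76.2 and 77.8 CPM at 0 h, 106, 106 and 110 CPM at 2 h, and 155, 159 and 151 CPM at 8 h. The 3 times did not overlap, nor did the genotypes. Aars, the alanine enzyme, measured 216, 179 and 182 CPM at 0 h, 302, 221 and 245 CPM at 2 h, and 338, 317 and 352 CPM at 8 h in KO clones. In WT clones it measured 164, 158 and 160 CPM at 0 h, 212, 209 and 208 CPM at 2 h, and 260, 245 and 238 CPM at 8 h. Wars rose least at 8 h. It averaged 57.9 ± 0.792, 68.9 ± 4.13 and 69.7 ± 6.35 CPM in KO cells and 55.3 ± 2.61, 70.8 ± 3.87 and 70.9 ± 1.64 CPM in WT cells at 0, 2 and 8 h.

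KO cells differed from WT cells in few members at 0 h and in most at 8 h. At 0 h 4 of 35 members were higher and 1 lower in KO cells, against 6.81% and 9.64% of all genes (16.4% called). At 2 h 7 were higher and 2 lower, against 10.8% and 12.9% (23.7% called), and at 8 h 17 were higher and 4 lower, against 14.5% and 17.1% (31.6% called). The median log2 fold change of the members was 0.09, 0.15 and 0.27 at 0, 2 and 8 h, against 0.01, 0.00 and 0.00 over all genes. Without the KO clone A library of the same time it was 0.03, 0.04 and 0.17. It was also 0.06 at 0 h without WT clone B, 0.22 at 2 h without KO clone B, and 0.05 at 2 h without the 3 libraries rich in abundant genes. KO libraries were above all WT libraries for 7, 10 and 19 members at 0, 2 and 8 h (15.9, 18.6 and 18.1% of all genes) and below all of them for 2, 5 and 4 members (17.1, 19.2 and 22.1%). The direction rests on the scale: with library size alone, which lowers the median of all genes by 0.25 at 8 h, 4 members were higher and 6 lower at 8 h, 2 and 2 at 2 h, and none at 0 h, with medians of 0.13, 0.06 and 0.01 for the members at 0, 2 and 8 h. With the clone letter as a block 21 were higher and 4 lower at 8 h. Without the 3 libraries rich in abundant genes, which leaves clone A alone in KO at 8 h and assumes that it varies like the other groups, 19 were higher and 2 lower, and 16 of the 21 were still called. Primitive endoderm markers differed between KO and WT cells, with 5 of 7 testable. They summed to 56.0 to 69.1 CPM in KO against 31.8 to 32.0 CPM in WT libraries at 0 h, to 34.5 to 45.3 against 17.4 to 26.4 CPM at 2 h, and to 24.1 to 29.8 against 9.23 to 9.93 CPM at 8 h. Of the 5, 4, 4 and 5 were higher in KO cells at 0, 2 and 8 h, and their part in the result was not tested.

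**Figure D4:**
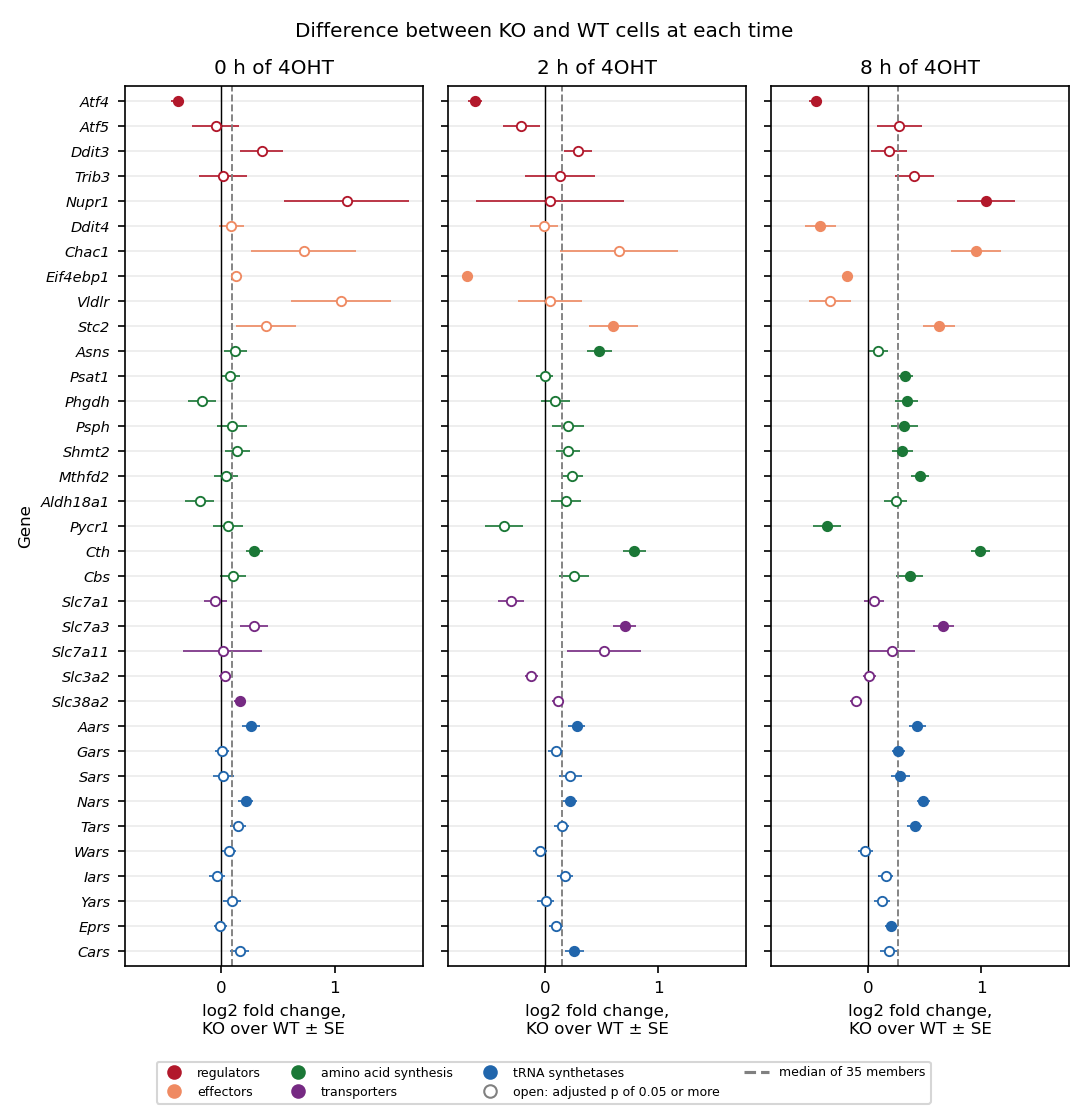
Log2 fold change (± SE) of each member in KO over WT cells at 0, 2 and 8 h of 4OHT, with genes down the side, colours for role, open points for an adjusted p of 0.05 or more and a dashed line at the median of the 35 members. Filled points grow in number from left to right; Atf4 is below 0 at all 3 times and Cth above 0 at all 3, and with library size alone in place of TMM fewer points would be called.

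Atf4 was the regulator that stood lower in KO cells throughout. In KO clones A, B and C it measured 106, 86.8 and 93.3 CPM at 0 h, 116, 113 and 111 CPM at 2 h, and 122, 127 and 125 CPM at 8 h. In WT clones it measured 119, 133 and 121 CPM at 0 h, 180, 174 and 167 CPM at 2 h, and 170, 175 and 171 CPM at 8 h. The genotypes did not overlap at any time. Its log2 fold change in KO over WT cells was -0.39 ± 0.06 at 0 h (edgeR, adjusted p = 3.50e-05), -0.61 ± 0.06 at 2 h (adjusted p = 8.23e-10) and -0.46 ± 0.06 at 8 h (adjusted p = 2.30e-07). With library size alone the 0 h call was lost (adjusted p = 0.122). Nupr1 was the other regulator called at 8 h, at 1.04 ± 0.26 (adjusted p = 0.00220) from the values above, in which KO clone A was the highest. Without KO 8 h clone A the log2 fold change of Nupr1 was 0.42 (adjusted p = 0.307).

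Among effectors 2 were higher and 2 lower in KO cells at 8 h, against 14.5% and 17.1% of all genes. With library size alone 1 was higher and 3 lower. Chac1 was higher at 8 h, with no overlap of libraries, by 0.95 ± 0.22 on the log2 scale (edgeR, adjusted p = 0.00105; DESeq2, adjusted p = 0.123). Stc2 was higher at 2 h by 0.60 ± 0.21 (adjusted p = 0.0384) and its libraries did not overlap at 2 h or 8 h, and its 8 h call was lost without KO 8 h clone A and with library size alone. The 2 h call was lost with library size alone (0.51, adjusted p = 0.18) and without KO 2 h clone A (0.46, adjusted p = 0.181), KO 2 h clone B (0.66, adjusted p = 0.0512), WT 2 h clone A (0.52, adjusted p = 0.135) or WT 2 h clone C (0.61, adjusted p = 0.0906). Eif4ebp1 was lower at 2 h, with 360 to 378 CPM in KO and 582 to 597 CPM in WT libraries, a log2 fold change of -0.68 ± 0.05 (adjusted p = 8.01e-13). Ddit4 was lower at 8 h, at a log2 fold change of -0.42 ± 0.14 (adjusted p = 0.0170), with 11.5 to 13.0 CPM in KO and 14.5 to 18.2 CPM in WT libraries. The Ddit4 call was lost without WT 8 h clone A (-0.39, adjusted p = 0.0740) or clone B (-0.37, adjusted p = 0.0617) and without the 3 libraries rich in abundant genes (-0.36, adjusted p = 0.132).

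Cth gave the highest KO over WT value among synthesis enzymes at every time. Its log2 fold change was 0.29 ± 0.08 at 0 h (edgeR, adjusted p = 0.00795), 0.79 ± 0.10 at 2 h (adjusted p = 1.92e-07) and 0.99 ± 0.08 at 8 h (adjusted p = 8.98e-11), and the genotypes did not overlap at any time. The 0 h call was lost with library size alone (0.32, adjusted p = 0.238) and without WT 0 h clone B (0.23, adjusted p = 0.0653). At 8 h 7 of the 10 synthesis enzymes were higher and Pycr1 was lower in KO cells, against 14.5% and 17.1% of all genes. Under library size alone 1 was higher and 1 lower. Pycr1 had 13.98 to 20.7 CPM in KO and 18.9 to 23.9 CPM in WT libraries at 8 h, which overlap, and a log2 fold change of -0.36 ± 0.13 (adjusted p = 0.0262). Its call was lost in DESeq2 (adjusted p = 0.0518), without the 3 libraries rich in abundant genes (-0.10, adjusted p = 0.660), and without KO 8 h clone B (-0.25, adjusted p = 0.179), KO 8 h clone C (-0.31, adjusted p = 0.0766), WT 8 h clone A (-0.29, adjusted p = 0.155) or WT 8 h clone B (-0.33, adjusted p = 0.0742).

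Slc7a3 was higher in KO cells at 2 h by 0.70 ± 0.10 (edgeR, adjusted p = 3.61e-06) on the log2 scale and was the only transporter called at 8 h, though Slc38a2 was also called lower there under library size alone. Of the synthetases, 2 were higher at 0 h, 3 at 2 h and 6 at 8 h (6.81, 10.8 and 14.5% of all genes). None of them was called under library size alone, where Eprs turned below 0 at 8 h. Aars and Nars were higher at all 3 times, but their 2 h calls, and that of Cars, were lost without KO 2 h clone A. Their 0 h log2 fold changes were 0.26 ± 0.08 (adjusted p = 0.0213) and 0.21 ± 0.06 (adjusted p = 0.0214). Both 0 h calls were lost with library size alone (adjusted p = 0.235 for Aars and 0.395 for Nars) and without KO 0 h clone A (0.17, adjusted p = 0.198 for Aars, and 0.16, adjusted p = 0.143 for Nars). They were also lost without WT 0 h clone B (adjusted p = 0.0743 and 0.0844) or clone C (adjusted p = 0.0648 and 0.0666), and Nars without KO 0 h clone C (adjusted p = 0.0736).

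The change from 0 h differed between KO and WT cells for few members. At 2 h the difference between genotypes was called for 2 members, 1 higher and 1 lower, against 6.60% and 6.60% of all genes (13.2% called). At 8 h it was called for 9, with 5 higher and 4 lower, against 7.88% and 8.88% of all genes (16.8% called). Eif4ebp1 rose less in KO cells, by -0.81 ± 0.07 at 2 h (edgeR, adjusted p = 4.28e-10) and -0.31 ± 0.07 at 8 h (adjusted p = 0.00180) as a difference of log2 fold changes. Cth fell less in KO cells, with a difference of 0.50 ± 0.13 at 2 h (adjusted p = 0.00599) and 0.70 ± 0.11 at 8 h (adjusted p = 5.07e-05). Phgdh and Mthfd2 rose more in KO cells by 8 h, with differences of 0.51 ± 0.16 (adjusted p = 0.0235) and 0.42 ± 0.13 (adjusted p = 0.0241). Vldlr rose less, at -1.39 ± 0.48 (adjusted p = 0.0425), and Ddit4 fell more, at -0.51 ± 0.18 (adjusted p = 0.0436). Under library size alone 0 were higher and 1 lower at 2 h, 0 were higher and 4 lower at 8 h, and the 8 h differences were 0.41 for Cth, 0.24 for Phgdh and 0.13 for Mthfd2, with adjusted p of 0.159 to 0.664, and the 2 h difference of Cth was 0.38 (adjusted p = 0.430). The Vldlr and Ddit4 calls were each lost in 11 of the 18 fits that leave out 1 library, at adjusted p of 0.0503 to 0.178 for Vldlr and 0.0515 to 0.172 for Ddit4. Both were also lost without the 3 libraries rich in abundant genes (adjusted p = 0.108 and 0.137), and Ddit4 in DESeq2 (adjusted p = 0.0741). The Phgdh call was lost without KO 0 h clone B, KO 8 h clone A or WT 8 h clone C, and that of Mthfd2 without KO 0 h clone B or C, WT 0 h clone C or WT 8 h clone C. Gars and Nars, the other 2 called higher, lost their calls in 6 and 4 of the 18 fits.

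**Figure D5:**
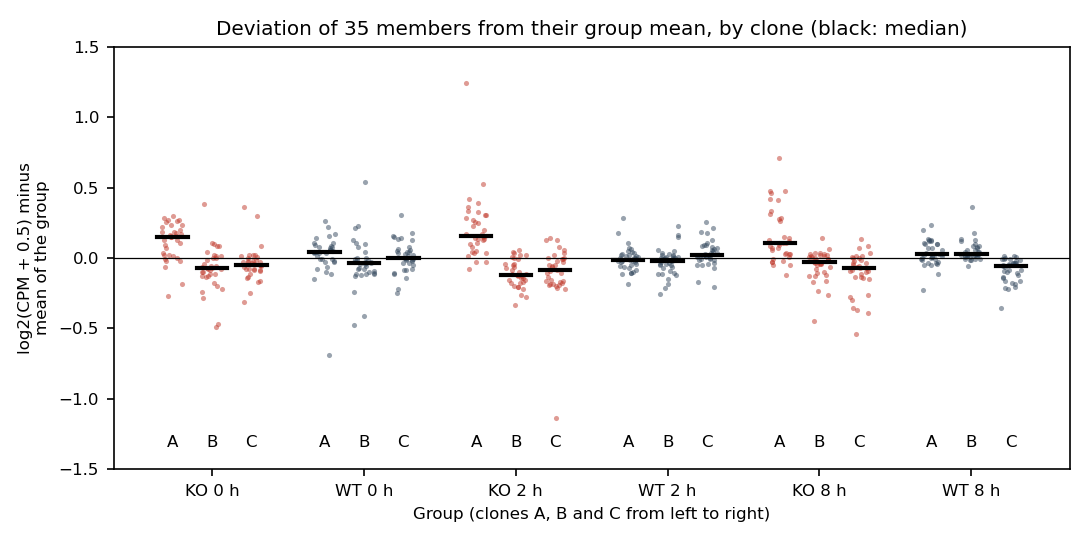
Deviation of each of the 35 members from its group mean, on the log2(CPM + 0.5) scale, by clone (A, B and C from left to right) within each group, KO in red and WT in dark blue, with a black bar at the median. In KO groups the clone A bar lies above those of clones B and C at all 3 times, at 0.15, 0.16 and 0.11.

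Within KO cells the clone A library was most often the highest of its group. It was the highest of the 3 for 25, 30 and 27 of 35 members at 0, 2 and 8 h in KO cells, against 35.0, 34.6 and 38.0% of all genes. In WT cells it was the highest for 17, 11 and 18 members, against 34.0, 36.8 and 31.7% of all genes. The median deviation of KO clone A from its group was 0.15, 0.16 and 0.11 at 0, 2 and 8 h on the log2 scale. Clone B was the highest for 7, 2 and 4 members in KO cells (32.9, 33.7 and 27.3% of all genes) and 8, 7 and 17 in WT cells (33.7, 32.7 and 32.6%). Clone C was the highest for 3, 3 and 4 members in KO cells (32.2, 31.7 and 34.8%) and 10, 17 and 0 in WT cells (32.3, 30.5 and 35.6%). These counts are a description, since members in a library share its depth and scale.

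Other genes of the pathway gave mixed counts. Of the 15 tested genes of the eIF2 branch (the eIF2 kinases, phosphatases, subunits and exchange factors), 9 rose and 0 fell at 8 h in KO cells, and 6 rose and 3 fell in WT cells. The share called was 60.0% in each, against 57.8% of all genes in KO cells and 61.9% in WT cells. Scaled by library size alone, 0 rose and 4 fell in KO cells, and 2 rose and 2 fell in WT cells. Calls over all genes in KO cells at 8 h also leaned to lower under that scale, as the last section gives. Eif2b3, part of the exchange factor, was the highest in KO cells at 0.62 ± 0.06 (edgeR, adjusted p = 1.49e-10), and Eif2ak2, the kinase PKR, fell in WT cells by 0.42 ± 0.06 (adjusted p = 1.14e-06). Of 7 tested partners of ATF4, 3 rose and 2 fell at 2 h in KO cells, against 31.5% and 35.2% of all genes. In WT cells 4 rose and 2 fell, against 32.4% and 33.8%. At 8 h 2 rose and 2 fell in KO cells, against 28.2% and 29.6%. In WT cells 2 rose and 1 fell, against 30.7% and 31.3%. In KO against WT cells 1 was higher and 1 lower at 0 h, against 6.81% and 9.64% of all genes. At 2 h 2 were higher and 3 lower, against 10.8% and 12.9%. At 8 h 2 were higher and 1 lower, against 14.5% and 17.1%. Cebpb rose at 2 h by 2.81 ± 0.25 in KO cells (adjusted p = 3.09e-11) and 3.66 ± 0.26 in WT cells (adjusted p = 1.11e-13) on the log2 scale. Atf3, which ATF4 induces and which ERK signalling also raises, was higher in KO than in WT cells by 2.43 ± 0.28 at 0 h (adjusted p = 2.39e-07), 0.83 ± 0.21 at 2 h (adjusted p = 0.00340) and 1.46 ± 0.24 at 8 h (adjusted p = 2.23e-05), while its 2 h response was lower in KO cells by -1.60 ± 0.37 (adjusted p = 0.00291). Jdp2, a bZIP repressor, fell at 2 h by 0.90 ± 0.17 in KO cells and by 1.24 ± 0.14 in WT cells, and at 8 h by 0.79 ± 0.18 in KO cells and by 2.01 ± 0.15 in WT cells. Its log2 fold change in KO over WT cells was -1.05 ± 0.14 at 0 h (adjusted p = 1.82e-06). Of 10 cytosolic synthetases outside the module, 10 rose in KO and 9 in WT cells at 8 h, against 28.2% and 30.7% of all genes. None fell, and with library size alone 3 and 7 rose. Mitochondrial synthetases did not do so. At 8 h 6 of 17 were higher and 5 lower in KO cells (35.3% and 29.4%, against 28.2% and 29.6% of all genes). In WT cells 7 were higher and 5 lower (41.2% and 29.4%, against 30.7% and 31.3%). At 2 h 1 was higher and 10 lower in KO cells (5.88% and 58.8%, against 31.5% and 35.2%). In WT cells 2 were higher and 10 lower (11.8% and 58.8%, against 32.4% and 33.8%). Lars2, among the 6 that rose in KO cells at 8 h, belongs to the 13 very abundant genes.

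Of 21 tested genes of the other arms of endoplasmic reticulum stress, 7 rose and 8 fell at 8 h in KO cells (33.3% and 38.1%, against 28.2% and 29.6% of all genes). In WT cells 7 rose and 2 fell (33.3% and 9.52%, against 30.7% and 31.3%). In KO against WT cells at 8 h, 2 were higher and 8 lower (9.52% and 38.1%, against 14.5% and 17.1%). Scaled by library size alone, 1 rose and 14 fell in KO cells, against 5 and 2 in WT cells, and 0 were higher and 14 lower in KO than in WT cells. Under that scale the calls over all genes also leaned to lower, for KO cells at 8 h and for KO over WT at 8 h. The last section gives those shares, and these counts alone do not set this list apart. Xbp1, the factor activated by IRE1, rose in WT cells at 8 h by 1.23 ± 0.08 (edgeR, adjusted p = 1.36e-14), and its 8 h response was lower in KO cells by -1.02 ± 0.12 (adjusted p = 1.66e-07). Herpud1, which serves protein removal from the endoplasmic reticulum, rose in KO cells by 1.25 ± 0.14 (adjusted p = 8.62e-09). Of 21 genes for amino acid sensing by mTORC1, 7 rose and 8 fell in KO cells at 8 h, 71.4% called against 57.8% of all genes. In WT cells 8 rose and 8 fell, 76.2% called against 61.9%. Sesn3, a relative of the leucine sensor Sesn2, fell by 1.63 ± 0.08 in KO cells (adjusted p = 6.83e-17) and by 1.92 ± 0.08 in WT cells (adjusted p = 1.02e-19). Of 14 folate enzymes outside the module 5 rose and 7 fell at 8 h in KO cells, against 28.2% and 29.6% of all genes. In WT cells 4 rose and 6 fell at 8 h, against 30.7% and 31.3%. Mthfd1l, the mitochondrial partner of Mthfd2, rose by 0.92 ± 0.06 in KO and 0.80 ± 0.06 in WT cells, and Aldh1l1, which oxidises folate-bound carbon, fell by 2.33 ± 0.15 in KO and by 2.19 ± 0.14 in WT cells. Of 10 other amino acid transporters 5 rose and 1 fell in KO cells and 4 rose and 2 fell in WT cells at 8 h, against the same shares of all genes. Slc7a7, a further partner of Slc3a2, gave the highest log2 fold change among them, at 2.10 ± 0.07 in KO cells (adjusted p = 4.50e-22) and 2.41 ± 0.06 in WT cells (adjusted p = 2.48e-24).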

How the data were processed

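Nascent RNA was measured in 18 libraries. The authors deposited 1 table of raw counts of reads per gene symbol. STAR, featureCounts, DESeq and the mm10 build are named in the submitters' processing notes. Their versions, the annotation release and the counting settings were not given in the sources used here, and the statements on overlapping genes come from the counts set against GENCODE M21 spans of GRCm38. The members and lists were chosen with earlier results of these data known. Groups and clones came from the labels.

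Counts were scaled by TMM and fitted with edgeR 4.0.16 (R 4.3.3, limma 3.58.1) after filterByExpr, with 6 group means over all 18 libraries and the quasi-likelihood test, two-sided, for 9 contrasts over 14128 genes. A call is a Benjamini-Hochberg adjusted p under 0.05, and SE is that of the log2 fold change. Levels are CPM after TMM, given as mean ± SD of 3 libraries where not given per library. Full statistics are given for up to 3 members per direction and comparison among those called with a mean of at least 1 CPM, and other members by level, count and range. The scripts were tested on simulated data. Replicate libraries differed by more than sampling noise in every pair of a group (chi-square per degree of freedom of 1.48 or more). The values were 4.86 to 42.7 in KO cells at 2 h and 8.34 to 95.2 in KO cells at 8 h. In the other groups they were at most 5.03.

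Alternatives were DESeq2 1.42.0, RLE scaling, library size alone, no filter on low counts, the clone letter as a block, omission of the 3 libraries rich in abundant genes and omission of each library. The labels give the same clone letter to KO and WT cells and to all times, which is where the pairing comes from. Deviations from the group means of libraries with the same letter correlated at 0.018 on average over 45 pairs (-0.13 to 0.096), and the best match of 14 of 18 libraries was their own letter. Promoter windows come from RefSeq tables of GRCm38.p6, and the matched stretches of 1 member are not reported here. The limit that a count of 0 allows covers counting error only.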

Additional observations from a re-analysis of the deposited data

Results flagged for a closer look

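The change from 0 h differed between KO and WT cells, by the test of that difference in edgeR, for 11 combinations of member and time. The values are differences of log2 fold changes, KO minus WT. At 2 h they were -0.81 for Eif4ebp1 and 0.50 for Cth. At 8 h they were -1.39 for Vldlr, -0.51 for Ddit4, -0.31 for Eif4ebp1 and -0.27 for Slc38a2, and 0.70 for Cth, 0.51 for Phgdh, 0.42 for Mthfd2, 0.27 for Gars and 0.27 for Nars. With library size alone the Gars and Nars differences changed sign. No group held the 4 samples that a check for a single deviating library needs.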

How the results depend on the processing

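Scaling mattered most. With library size alone the members called fell to 0, 4 and 10 for KO over WT at 0, 2 and 8 h, from 5, 9 and 21, to 16 in KO and 17 in WT cells at 2 h, and to 1 and 4 for the difference in response at 2 h and 8 h. Of all genes called, 8.17% were then higher for KO over WT at 8 h, against 45.8% with TMM. That share was 18.4% against 45.7% at 2 h, and 14.7% against 48.8% for 8 h in KO cells. Without the filter on low counts 14 members were called for KO over WT at 2 h and 4 for the 2 h difference in response. Leaving out 1 library gave 1 to 5, 6 to 13 and 17 to 24 members for KO over WT at 0, 2 and 8 h, with the lowest at 0 h without WT clone B and at 2 h without KO clone A. The ranges were 25 to 27 and 31 to 33 in KO cells, and 22 to 27 and 33 to 33 in WT cells, at 2 h and 8 h. The differences in response gave 2 to 4 at 2 h and 4 to 13 at 8 h, with 4 without WT 8 h clone C, 5 without KO 0 h clone B, WT 0 h clone C or KO 8 h clone B, and 13 without KO 2 h clone A. With the clone letter as a replicate block the counts were 5, 12 and 25 for KO over WT, 27 and 32 in KO cells, 27 and 33 in WT cells, and 3 and 10 for the differences, and no call was lost. Of the called members named by the rule for full statistics, no log2 fold change or difference changed sign under these alternatives. The cause of these shifts was not tested. Depth limits Nupr1, Vldlr, Chac1 and Slc7a11, which are near a few counts in some libraries.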
